A study of Mus musculus with 9 samples.

Results

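The genes of the proteasome were followed across the livers of 9 wild-type C57BL/6J mice. They were taken as every row of the deposited gene table whose KEGG column holds the Proteasome pathway, which gave 46 of 36119 genes. By role they were 8 genes of the alpha ring, 7 of the constitutive beta ring, 3 immunoproteasome beta subunits, 6 ATPases of the base, 4 other base subunits, 9 lid subunits, 5 activator genes and 4 others. The mice were males of 6 to 8 weeks, 3 in each group, and each gave 1 poly(A)-selected library. ZnPP+OA mice received zinc protoporphyrin (ZnPP, an inhibitor of heme oxygenase-1) by intraperitoneal injection at 20 mg/kg 2 h before oleanolic acid (OA, a plant triterpenoid that causes cholestatic liver injury in mice), OA mice received OA, and Cont mice received corn oil, for 4 days. The OA dose is 295.5 mg/kg in the sample titles and 295.92 mg/kg in the treatment protocol. Mice without ZnPP received saline by injection per the protocol, and no group received ZnPP alone, so what ZnPP does without OA cannot be told apart from what it does to the response to OA.

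The proteasome is the main protease of the cytosol and nucleus. Its core particle is a barrel of alpha and beta rings in which the beta subunits Psmb6, Psmb7 and Psmb5 cut proteins after acidic, basic and hydrophobic residues. The regulatory particle caps the barrel: ATPases of the base unfold tagged proteins, and the lid holds Psmd14, the enzyme that takes off ubiquitin. Interferon-gamma induces Psmb9, Psmb10 and Psmb8, which replace the constitutive catalytic subunits and form the immunoproteasome, a source of peptides for MHC class I. In mammalian cells the transcription factor Nfe2l1 raises proteasome genes together when proteasome activity falls, through antioxidant response elements, the DNA letters that Nrf2 (Nfe2l2) also binds.

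Promoter stretches of 4 genes are shown, because Psmd8 and Sem1 were the members past the threshold and Psmb5 and Psmb6 are constitutive catalytic genes whose OA libraries lay above the libraries of both other groups. Each is the 150 bases before the RefSeq start (GRCm38.p6), 5′ to 3′ on the gene's strand, with a match to TGACNNNGC, the core letters of the antioxidant response element, in capitals.
Psmd8 (chr7:29180674-29180823, minus strand): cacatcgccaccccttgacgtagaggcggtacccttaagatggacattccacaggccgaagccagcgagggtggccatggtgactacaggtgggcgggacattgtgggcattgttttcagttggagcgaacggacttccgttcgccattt
Sem1 (chr6:6578659-6578808, minus strand): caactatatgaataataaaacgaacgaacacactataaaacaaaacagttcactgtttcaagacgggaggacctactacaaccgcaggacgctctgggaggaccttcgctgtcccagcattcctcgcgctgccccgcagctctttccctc
Psmb5 (chr14:54617996-54618145, minus strand): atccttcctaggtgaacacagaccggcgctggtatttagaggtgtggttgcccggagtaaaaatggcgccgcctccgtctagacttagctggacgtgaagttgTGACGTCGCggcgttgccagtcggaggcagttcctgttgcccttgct
Psmb6 (chr11:70525207-70525356, plus strand): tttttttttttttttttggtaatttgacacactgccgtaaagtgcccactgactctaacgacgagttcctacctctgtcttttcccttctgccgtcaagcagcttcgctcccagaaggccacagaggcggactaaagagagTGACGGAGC
The RefSeq table held promoters for 39 of the 46 members, in 42 entries. The letters TGACNNNGC, on either strand and within 250 bases before to 50 after the start, occurred in 8 of these 42 entries (19%) and in 4071 of 32851 entries of all genes (12.4%). The 8 genes were Adrm1, Psmb5, Psmb6, Psmc6, Psmd12, Psmd9, Psme4 and Sem1. In Psmb5 the match began 47 bases before the start and in Psmb6 9 bases before it, whereas in Sem1 it lay 20 bases after the start and is not in the stretch shown. Psmd8 held none in its window, nor did Psma7, Psmb3 and Psmd14, whose OA libraries also lay above those of both other groups. Psmd3, with the same order of libraries, had no promoter entry. TTCNNNGAA, the letters of the interferon-gamma activated site, which read the same on both strands, occurred in 3 member entries (7.14%; all genes, 8.3%), those of Ifng, Psmb8 and Psmd2. The letters CCAAT, on either strand, occurred in 13 (31%; all genes, 37.4%). These are matches of letters and say nothing of binding.

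Libraries held 32639438 to 85060187 counts. Mitochondrially encoded genes took 59.0% to 68.7% of the counts in ZnPP+OA livers, 13.7% to 38.2% in OA livers and 43.2% to 74.7% in Cont livers, and Cont 2 stood apart with the highest share. This share moves with the groups, so levels within a gene are given as CPM, counts per library brought to one size with TMM factors, which ranged from 0.265 in Cont 2 to 2.53 in OA 3, and levels between genes as FPKM, which correct for gene length. Apart from Psma8 and Ifng, each member had at least 90 counts in every library, and 45 members passed the filter on low counts (Ifng did not). Changes were tested with edgeR across 18895 genes and called at an adjusted p under 0.05. The labels give separate mice as replicates.

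Against Cont, OA livers had more proteasome RNA on the TMM scale, but only 1 gene, the lid subunit Psmd8, passed the test. The members summed to 1426, 1605 and 1657 CPM in OA livers, against 1354, 1155 and 1310 CPM in Cont livers, so the groups did not overlap. Of 45 tested members 1 was called higher, where 2.4% of all genes were, and 0 were called lower, where 2.8% of all genes were. At an unadjusted p under 0.05, 10 members were higher and 2 lower, beside 11.6% and 10.3% of all genes. The OA libraries lay wholly above the Cont libraries for 11 members (18.5% of all genes) and wholly below them for 3 (10.6%). The log2 fold change was above 0 for 35 of 45 members (53.5% of all genes) with a median of 0.34, beside 0.09 over all genes. DESeq2 called 1 member higher (4.41% of all genes) and 1 lower (8.52%), the base subunit Psmd1. The number called moved with the scale: 12 members were higher with library totals alone (15% of all genes), and limma on log2(FPKM + 1) called 34 of 44 higher (68.7%) and 0 lower (1.73%).

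Against OA, ZnPP+OA livers had less proteasome RNA, and again 1 lid gene, Sem1, passed the test. The members summed to 1191, 999 and 1308 CPM in ZnPP+OA livers, below all 3 OA livers. In this comparison 0 members were called higher and 1 lower, beside 1.6% and 1.26% of all genes. At an unadjusted p under 0.05, 0 were higher and 11 lower (7.91% and 10.2% of all genes), and DESeq2 called 0 higher (5.32%) and 5 lower (3.34%): Sem1, Psmb5, Psmd3, Psmd8 and Psmd13. With library totals alone 32 were lower (33.4% of all genes), and limma on log2(FPKM + 1) called 42 of 44 lower (76.3%). The ZnPP+OA libraries lay wholly below the OA libraries for 12 members (19.2% of all genes) and wholly above them for 1 (13.6%). The log2 fold change was above 0 for 7 of 45 members (47% of all genes), with a median of −0.30, beside −0.07 over all genes. Both comparisons use the same OA libraries, so their opposite signs are not independent.

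Between ZnPP+OA and Cont livers, 0 members were called in either direction, by edgeR (0% of all genes each way) or by DESeq2 (0.286% higher and 0.455% lower). The smallest adjusted p of a member was 0.589 (edgeR), and 1 member was higher and 2 lower at an unadjusted p under 0.05 (3.88% and 4.28% of all genes). The log2 fold change was above 0 for 14 of 45 members (48.3% of all genes), and the median was −0.11, beside −0.02 over all genes. The ZnPP+OA libraries lay wholly above the Cont libraries for 0 members (5.74% of all genes) and wholly below them for 5 (4.52%), namely the lid genes Psmd7, Psmd13 and Sem1, the ATPase Psmc5 and the inhibitor Psmf1.

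**Figure D1:**
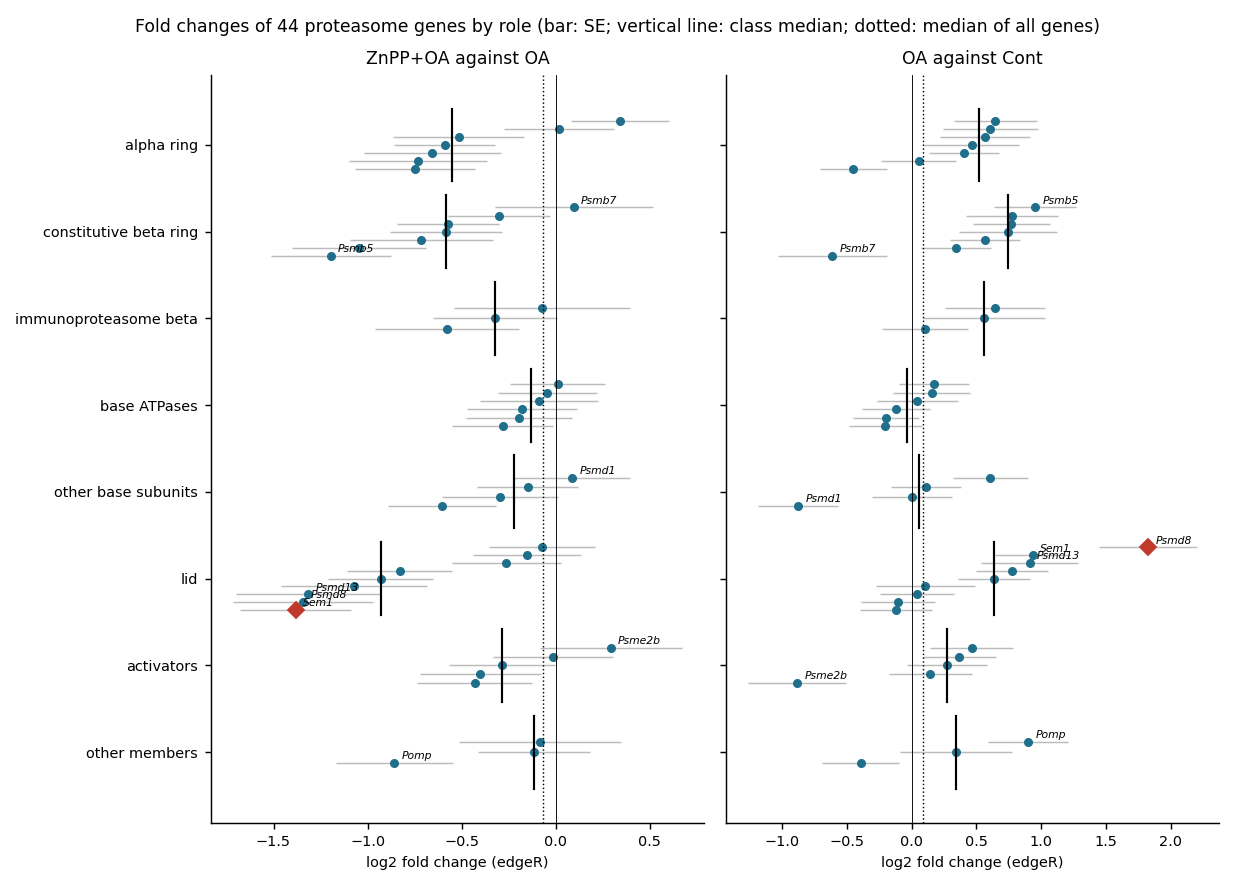
Log2 fold changes (edgeR, x axis) of 44 proteasome genes, one point each with its SE, grouped by role (y axis), for ZnPP+OA against OA (left) and OA against Cont (right). Black bars are class medians, the dotted line is the median of all genes and red diamonds passed the threshold; Psma8 is left out of the points because it had no counts in Cont. All 9 lid genes lie below 0 in ZnPP+OA against OA, and the base ATPases lie close to 0 in both.

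The lid carried both calls. Psmd8 (ENSMUSG00000030591, chromosome 7), a structural lid subunit, measured 40.6, 18.5 and 45.5 CPM in ZnPP+OA livers, 58.2, 113 and 94.5 CPM in OA livers and 25.1, 21.5 and 28.1 CPM in Cont livers. All OA livers lay above every liver of the other groups. Psmd8 was 3.55-fold higher in OA than in Cont livers (log2 1.83 ± 0.38 SE, edgeR adjusted p = 0.0162), and the log2 fold change of ZnPP+OA against OA was −1.34 ± 0.37 (adjusted p = 0.0778, edgeR). Leaving out 1 library at a time gave log2 1.65 to 2.09 for OA against Cont and adjusted p of 0.0115 to 0.082 (edgeR). The call was lost without Cont 2, OA 2 or OA 3, and without Cont 1 and Cont 2 together.

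Sem1 (ENSMUSG00000042541, chromosome 6) encodes a small acidic lid subunit, known as DSS1 in humans, that tethers lid subunits and also binds the DNA repair protein BRCA2. It measured 11.3, 7.2 and 7.63 CPM in ZnPP+OA livers, 19.2, 25.5 and 23.5 CPM in OA livers and 12.2, 11.4 and 12.1 CPM in Cont livers. The ZnPP+OA livers lay below the livers of both other groups and the OA livers above them. Sem1 had a log2 fold change of −1.38 ± 0.29 in ZnPP+OA against OA (edgeR adjusted p = 0.0272), and OA against Cont gave log2 0.94 ± 0.29 (adjusted p = 0.0831, edgeR). This call held in 5 of the 9 fits that leave out 1 library, with log2 −1.64 to −1.29 and adjusted p of 0.0163 to 0.159 (edgeR). The 4 fits that missed it were those without ZnPP+OA 2, ZnPP+OA 3, OA 2 and OA 3. Neither Psmd8 nor Sem1 has a near-identical transcript elsewhere in GENCODE M21.

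Psmd13, a non-catalytic lid subunit, split the OA livers. It measured 12.1, 10.4 and 13.0 CPM in ZnPP+OA livers, 12.6, 39.2 and 36.7 CPM in OA livers and 17.1, 14.8 and 15.2 CPM in Cont livers, so that OA 1 lay with the other groups. The log2 fold change was 0.91 ± 0.38 in OA against Cont (adjusted p = 0.179, edgeR) and −1.32 ± 0.38 in ZnPP+OA against OA (adjusted p = 0.088, edgeR). Without OA 1 the values were 1.31 (adjusted p = 0.0267, edgeR) and −1.71 (adjusted p = 0.013, edgeR). That fit called 1.98% of all genes higher in OA against Cont and 1.47% lower in ZnPP+OA against OA. Without OA 2 or OA 3, 0 members were called higher in OA against Cont (0.496% and 0.587% of all genes). The same fits called 0 members lower in ZnPP+OA against OA (0.0644% and 0.109%). Psmd13 overlaps Sirt3 on the opposite strand by up to 329 exonic bases, and the sources do not give whether counting used strand. Psmd6, with the lowest log2 fold change of the lid genes in OA against Cont and the highest in ZnPP+OA against OA, measured 18.7, 19.4 and 21.8 CPM in ZnPP+OA livers, 23.1, 18.9 and 20.9 CPM in OA livers and 23.7, 16.5 and 28.1 CPM in Cont livers, and the groups overlapped. Over the 9 lid genes the median log2 fold change was 0.64 in OA against Cont, where 7 were above 0 (53.5% of all genes). In ZnPP+OA against OA the median was −0.93, 0 of 9 were above 0 (47% of all genes) and 6 were lower at an unadjusted p under 0.05 (10.2%).

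The ATPases in the base of the regulatory particle lay close to 0. These 6 genes, which encode the motor that unfolds substrates, had log2 fold changes of −0.20 to 0.17 in OA against Cont (median −0.04) and −0.28 to 0.01 in ZnPP+OA against OA (median −0.13). Psmc3, the highest of them in OA against Cont and the lowest in ZnPP+OA against OA, measured 44.1, 42.8 and 46.1 CPM in ZnPP+OA livers, 46.5, 53.6 and 61.6 CPM in OA livers and 55.0, 37.6 and 50.6 CPM in Cont livers. Psmc6 measured 16.5, 17.3 and 23.8 CPM in ZnPP+OA livers, 21.9, 21.0 and 23.0 CPM in OA livers and 31.2, 19.9 and 24.8 CPM in Cont livers. Psmc5, at the upper end of ZnPP+OA against OA, measured 45.9, 42.2 and 43.5 CPM in ZnPP+OA livers, 49.7, 38.9 and 42.1 CPM in OA livers and 54.9, 46.9 and 48.5 CPM in Cont livers. None of the 6 was called by edgeR or had an unadjusted p under 0.05 in these comparisons. In one direction, edgeR called 1.26% to 2.8% of all genes in them, and 7.91% to 11.6% had such an unadjusted p. That the ATPases differ from the lid was not tested.

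Among the other base subunits, Psmd1 and Psmd2, the large scaffold proteins of the base, had opposite signs in OA against Cont. Psmd1 measured 42.6, 30.5 and 28.9 CPM in ZnPP+OA livers, 36.7, 29.8 and 29.5 CPM in OA livers and 69.4, 68.9 and 38.3 CPM in Cont livers. All OA livers lay below all Cont livers, but Cont 3 lay close to OA 1. The log2 fold change of OA against Cont was −0.88 ± 0.31 (adjusted p = 0.123, edgeR). Without Cont 3 it was −1.15 (adjusted p = 0.039, edgeR), and DESeq2 gave −1.05 (adjusted p = 0.0198). Over all genes 3.52% and 8.52% were called lower in these settings. No other fit that leaves out 1 library called a member lower in OA against Cont. With library totals alone, which put the median of all genes at 1.48, the value of Psmd1 was 0.65, above 0 but below that median. Psmd2 measured 36.4, 32.1 and 29.6 CPM in ZnPP+OA livers, 36.7, 56.2 and 56.1 CPM in OA livers and 28.1, 29.4 and 40.2 CPM in Cont livers, and its log2 fold changes were 0.61 ± 0.29 in OA against Cont and −0.60 ± 0.29 in ZnPP+OA against OA (adjusted p = 0.238 and 0.294, edgeR). The ubiquitin receptors Psmd4 and Adrm1 had log2 fold changes of 0.00 and 0.11 in OA against Cont.

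In the core particle, most constitutive genes were above 0 in OA livers without passing the test. The median log2 fold change was 0.52 over the 8 alpha genes and 0.75 over the 7 constitutive beta genes in OA against Cont, and −0.55 and −0.58 in ZnPP+OA against OA. Psmb5, the chymotrypsin-like subunit, measured 25.8, 15.9 and 19.7 CPM in ZnPP+OA livers, 38.2, 45.8 and 56.9 CPM in OA livers and 26.9, 16.4 and 29.2 CPM in Cont livers. All OA livers lay above every other liver. The log2 fold change was 0.96 ± 0.32 in OA against Cont (adjusted p = 0.1, edgeR) and −1.20 ± 0.32 in ZnPP+OA against OA (adjusted p = 0.0674, edgeR). The second of these passed the threshold with DESeq2, in the fit of the 6 compared libraries and with either other count filter. It also passed without Cont 1 or without Cont 2. It missed the threshold when any single library of the OA or ZnPP+OA group was dropped, and when Cont 3 was. The fit with replicate number as a block and edgeR with DESeq2 size factors missed it too.

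Psmb6, the caspase-like subunit, measured 44.8, 31.9 and 45.6 CPM in ZnPP+OA livers, 57.5, 55.1 and 69.1 CPM in OA livers and 37.4, 40.3 and 44.9 CPM in Cont livers. Its OA livers again lay above all others, with log2 fold changes of 0.57 ± 0.27 in OA against Cont and −0.57 ± 0.27 in ZnPP+OA against OA (adjusted p = 0.243 and 0.291, edgeR). Psmb7, the trypsin-like subunit, did not share this pattern and measured 11.9, 11.6 and 25.0 CPM in ZnPP+OA livers, 9.23, 15.7 and 20.5 CPM in OA livers and 34.5, 19.7 and 15.4 CPM in Cont livers. The groups overlapped throughout, and the log2 fold change of OA against Cont was −0.61 ± 0.42. Psmb7 overlaps Nek6 on the opposite strand by up to 253 exonic bases, and Psmb5 has a pseudogene, Gm3375, of 98.9% identity that drew up to 272 counts.

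At the ends of the alpha ring stood Psma8, Psma1 and Psma4. Psma8, a spermatogenesis variant of the alpha subunit Psma7, had 8, 31 and 0 counts in ZnPP+OA livers, 6, 49 and 75 in OA livers and 0, 0 and 0 in Cont livers. Against a floor of 3 counts over the Cont group, the pooled counts of OA livers were at least 11.0-fold higher (8.60-fold without OA 3, 13.7-fold without OA 1). For the pooled ZnPP+OA livers the bound was 14.5-fold, and it became 4.05-fold without ZnPP+OA 2 and 22.0-fold without ZnPP+OA 3. ZnPP+OA 3 had 0 counts like every Cont liver, so those groups overlapped. Bounds on pooled counts do not measure the spread between mice. Neither passed the test (edgeR adjusted p = 0.157 in OA against Cont and 0.589 in ZnPP+OA against Cont), and the class median of OA against Cont remained 0.52 with the gene at this bound. Psma1 measured 15.4, 9.96 and 20.7 CPM in ZnPP+OA livers, 19.6, 28.0 and 29.8 CPM in OA livers and 17.0, 17.8 and 14.7 CPM in Cont livers, with a log2 fold change of 0.65 ± 0.32 in OA against Cont and −0.75 ± 0.32 in ZnPP+OA against OA. Psma4 ran the other way, with 54.3, 54.6 and 66.4 CPM in ZnPP+OA livers, 47.0, 42.5 and 48.9 CPM in OA livers and 57.2, 62.5 and 69.4 CPM in Cont livers. The OA livers were the lowest 3 of the 9, and the log2 fold changes were −0.45 ± 0.26 in OA against Cont and 0.34 ± 0.26 in ZnPP+OA against OA (adjusted p = 0.339 and 0.557, edgeR).

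**Figure D2:**
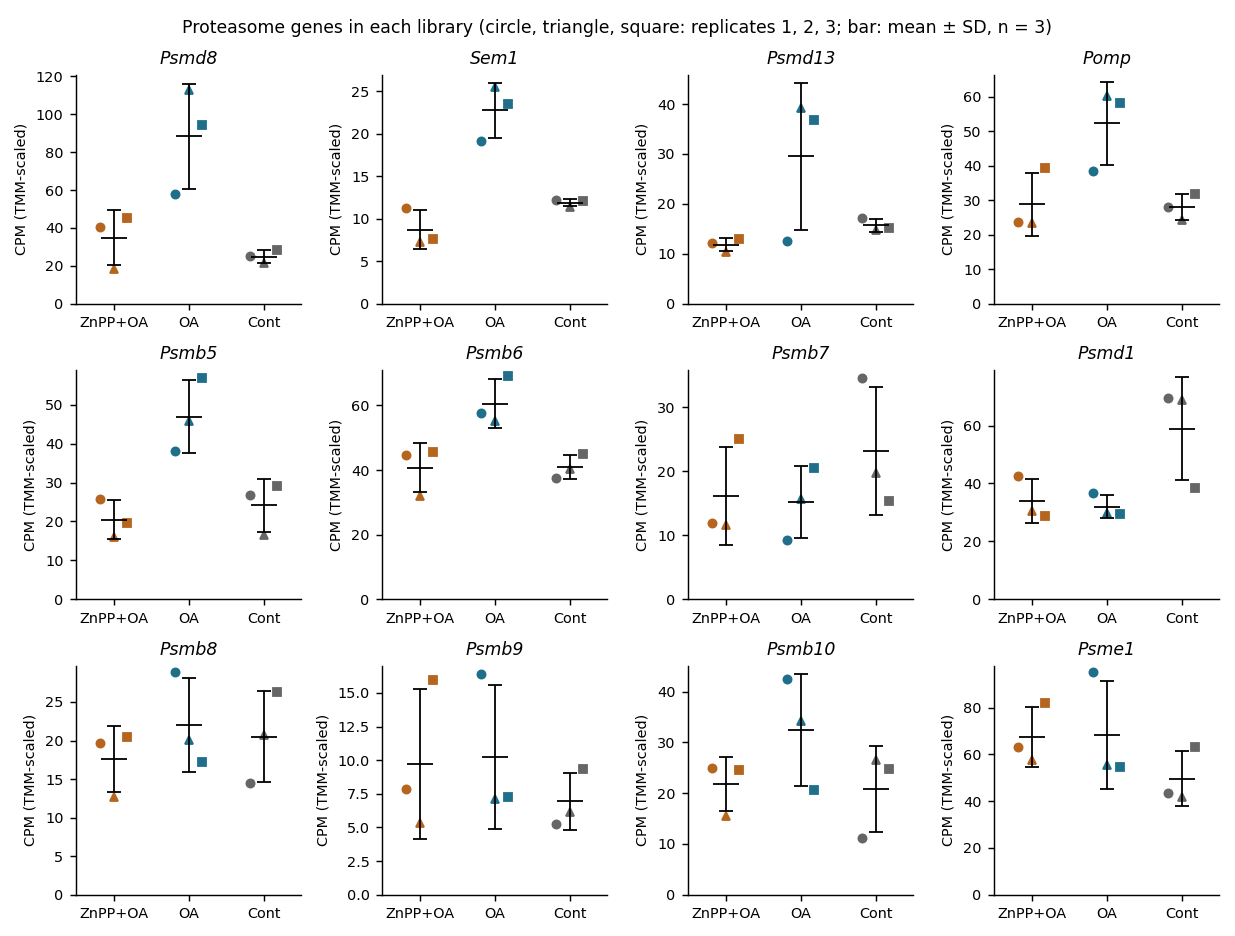
TMM-scaled CPM (y axis, from 0) of 12 proteasome genes in each library, by group (x axis). Circles, triangles and squares are replicates 1, 2 and 3, and bars are the mean ± SD (n = 3). The OA points of Psmd8, Sem1, Psmb5 and Psmb6 lie above all others, while the groups overlap for Psmb7, Psmb8, Psmb9 and Psmb10.

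The 3 immunoproteasome genes overlapped between all groups, and edgeR and DESeq2 each called 0 of them, with 0 at an unadjusted p under 0.05 (edgeR) in any comparison. In OA against Cont, 18.5% of all genes were higher without overlap and 10.6% lower, and in ZnPP+OA against OA 13.6% and 19.2%. edgeR called 2.4% and 2.8% of all genes higher and lower in the first, and 1.6% and 1.26% in the second. Calling 0 of 3 thus does not set these genes apart. With limma on log2(FPKM + 1) all 3 were lower in ZnPP+OA than in OA livers and higher in OA than in Cont livers, as were most genes. Psmb8 measured 19.7, 12.6 and 20.5 CPM in ZnPP+OA livers, 28.9, 20.0 and 17.2 CPM in OA livers and 14.5, 20.7 and 26.3 CPM in Cont livers. Psmb9 measured 7.90, 5.33 and 16.0 CPM in ZnPP+OA livers, 16.4, 7.11 and 7.24 CPM in OA livers and 5.29, 6.16 and 9.34 CPM in Cont livers. For Psmb10 the values were 24.9, 15.6 and 24.6 CPM in ZnPP+OA livers, 42.5, 34.3 and 20.7 CPM in OA livers and 11.1, 26.6 and 24.7 CPM in Cont livers. OA 1 was the highest OA liver for all 3 genes. The log2 fold changes of OA against Cont were 0.10 ± 0.33, 0.56 ± 0.47 and 0.64 ± 0.38 for Psmb8, Psmb9 and Psmb10, and those of ZnPP+OA against OA were −0.32 ± 0.33, −0.07 ± 0.47 and −0.58 ± 0.38. Exons of Psmb8 and Psmb9 overlap Gm20496 (259 bases) and Tap1 (212 bases) on the opposite strand.

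Each immunoproteasome subunit can be set against the constitutive subunit it replaces in the same library, which does not depend on library scaling. The log2 ratio of Psmb8 to Psmb5 FPKM was −2.30, −2.25 and −1.86 in ZnPP+OA livers, −2.32, −3.10 and −3.63 in OA livers and −2.80, −1.58 and −2.07 in Cont livers. It was higher in every ZnPP+OA liver than in any OA liver, by 0.88 on average, but OA 1 (−2.315) nearly tied with ZnPP+OA 1 (−2.305). The exact two-sided permutation p was 0.1, the smallest that 3 against 3 libraries allow (0.75 after adjustment over 9 tests). Psmb9 to Psmb6 gave −3.48, −3.56 and −2.48 in ZnPP+OA livers, −2.78, −3.92 and −4.22 in OA livers and −3.80, −3.71 and −3.23 in Cont livers. Psmb10 to Psmb7 gave 2.07, 1.43 and 0.98 in ZnPP+OA livers, 3.21, 2.13 and 1.02 in OA livers and −0.64, 1.43 and 1.69 in Cont livers. Groups overlapped in both, and the exact permutation p of the other 8 tests was 0.2 to 1. Per length, Psmb8 stood below Psmb5 and Psmb9 below Psmb6 in all 9 livers, whereas Psmb10 stood above Psmb7 in 8 of 9.

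**Figure D3:**
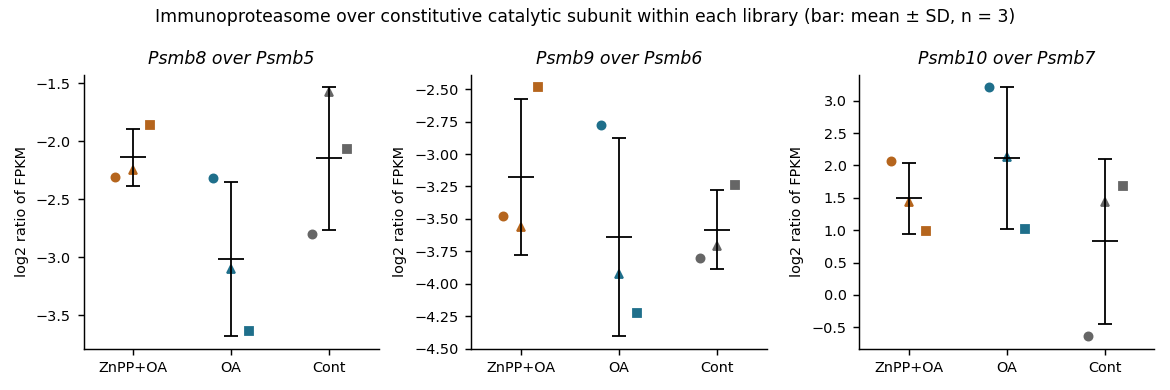
Log2 ratio of the FPKM of each immunoproteasome subunit to that of its constitutive counterpart within a library (y axis), by group (x axis). Circles, triangles and squares are replicates 1, 2 and 3, and bars are the mean ± SD (n = 3). OA 1 gave the highest OA ratio in each panel. Only Psmb8 over Psmb5 separates ZnPP+OA from OA livers, with OA 1 (−2.315) nearly tied with ZnPP+OA 1 (−2.305).

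The interferon side of the same pathway was not called either. Ifng, a KEGG member because it induces the immunoproteasome, had 0, 0 and 0 counts in ZnPP+OA livers, 8, 0 and 6 in OA livers and 0, 0 and 0 in Cont livers, too few to test. Of 16 interferon response genes, edgeR and DESeq2 each called 0 in any comparison or direction (at most 2.8% and 8.52% of all genes). At an unadjusted p under 0.05, 2 were lower in ZnPP+OA than in OA livers (10.2% of all genes) and 1 was higher in OA than in Cont livers (11.6%). Their summed level was 220, 242 and 391.8 CPM in ZnPP+OA livers, 497, 358 and 288 CPM in OA livers and 178, 181 and 375 CPM in Cont livers. OA 1 was the highest here as it was for Psmb8, Psmb9 and Psmb10 among OA livers. The part of these genes in the immunoproteasome values was not tested. Of 8 genes that load peptides on MHC class I, 0 were called in any comparison by edgeR or DESeq2, beside the same shares. At an unadjusted p under 0.05, 1 of these was lower in ZnPP+OA than in OA livers (10.2% of all genes).

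Of the 5 activator genes, edgeR and DESeq2 each called 0 in any comparison. In one direction they called at most 2.8% and 8.52% of all genes. At an unadjusted p under 0.05, 1 activator gene, Psme2b, was lower in OA than in Cont livers (10.3% of all genes). With limma on log2(FPKM + 1), the scale on which most genes were called, the other 4 were lower in ZnPP+OA than in OA livers and higher in OA than in Cont livers. Psme1 and Psme2 form PA28alphabeta, a cap that interferon-gamma induces. Psme1 measured 63.1, 57.7 and 82.1 CPM in ZnPP+OA livers, 95.1, 55.4 and 54.7 CPM in OA livers and 43.7, 41.9 and 63.2 CPM in Cont livers, with OA 1 highest again. Psme2 measured 20.9, 17.4 and 34.2 CPM in ZnPP+OA livers, 35.0, 31.7 and 29.1 CPM in OA livers and 33.3, 20.6 and 32.7 CPM in Cont livers. Its near copy Psme2b, with 99.4% identity, had a log2 fold change of −0.88 ± 0.38 in OA against Cont (adjusted p = 0.195, edgeR), and reads of the pair may have been split between them. Psme3, the nuclear activator PA28gamma, measured 10.07, 10.03 and 12.4 CPM in ZnPP+OA livers, 10.5, 16.0 and 17.3 CPM in OA livers and 14.6, 11.7 and 9.96 CPM in Cont livers. Psme4, the PA200 cap, measured 21.1, 17.2 and 16.9 CPM in ZnPP+OA livers, 16.4, 25.4 and 25.4 CPM in OA livers and 17.99, 18.7 and 15.5 CPM in Cont livers. For both genes OA 1 lay within the Cont range.

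Pomp, the chaperone that starts beta ring assembly, measured 23.7, 23.3 and 39.4 CPM in ZnPP+OA livers, 38.4, 60.1 and 58.1 CPM in OA livers and 27.9, 24.2 and 31.8 CPM in Cont livers. All OA livers lay above all Cont livers, with log2 0.90 ± 0.31 (adjusted p = 0.115, edgeR), and the log2 fold change of ZnPP+OA against OA was −0.86 ± 0.31 (adjusted p = 0.159, edgeR). Psmf1, the inhibitor PI31, measured 8.32, 9.5 and 7.52 CPM in ZnPP+OA livers, 8.11, 9.03 and 10.3 CPM in OA livers and 12.9, 9.64 and 13.4 CPM in Cont livers, with log2 −0.39 ± 0.30 in OA against Cont. Of 8 assembly chaperones, 2 of them members, edgeR called 1 higher in OA than in Cont livers (2.4% of all genes) and 0 lower (2.8%). This was Psmd10, or gankyrin, a chaperone of the base, with 5.70, 11.1 and 8.14 CPM in OA livers, against 2.69, 3.17 and 2.08 CPM in Cont livers (log2 1.66 ± 0.41, adjusted p = 0.0353, edgeR). In ZnPP+OA livers it measured 3.31, 2.47 and 2.82 CPM (log2 −1.53 against OA, adjusted p = 0.0654, edgeR).

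Levels relative to each other within a library remove the scaling altogether. For 44 members above 0 FPKM in every library, each log2 FPKM was taken minus the median member of the same library. On this scale 5 members (9.84% of all genes) were higher in every OA liver than in any Cont liver: Psmd8 by 1.41, Psmb5 by 0.61, Sem1 by 0.55, Pomp by 0.51 and Psmd3 by 0.39 on average. Psmd8 stood at 1.2, 1.67 and 1.49 in OA livers, against −0.02, −0.02 and 0.16 in Cont livers. Another 7 members (18.1% of all genes) were lower without overlap, led by Psmd1 with a difference of −1.21, then Psme2b, Psmb7, Psma4, Psmf1, Psmc6 and Psmd11. Some were nearly tied: Psmb7 stood at −0.873 in Cont 3 and −0.878 in OA 3, and Psmd1 at −0.641 in Cont 3 and −0.713 in OA 1. In ZnPP+OA against OA, 4 members (7.02% of all genes) were lower without overlap (Sem1 by 0.89, Psmd8 by 0.88, Psmb5 by 0.69 and Psmd3 by 0.40) and 5 (27.2% of all genes) were higher (Psma4, Psmc3, Psmd12, Psmd9 and Psme2b). Here too some were nearly tied. Psmb5 stood at 2.139 in OA 2 and 2.099 in ZnPP+OA 1, Psmd9 at −2.164 in OA 2 and −2.151 in ZnPP+OA 1, and Psmc3 at 1.108 in OA 1 and 1.131 in ZnPP+OA 3. The shares are over 13385 tested genes above 0 FPKM in every library, each taken minus the same median member. The members are thus centred on themselves and the other genes are not, so the shares are not a like background. These are descriptions of the libraries and were not tested.

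**Figure D4:**
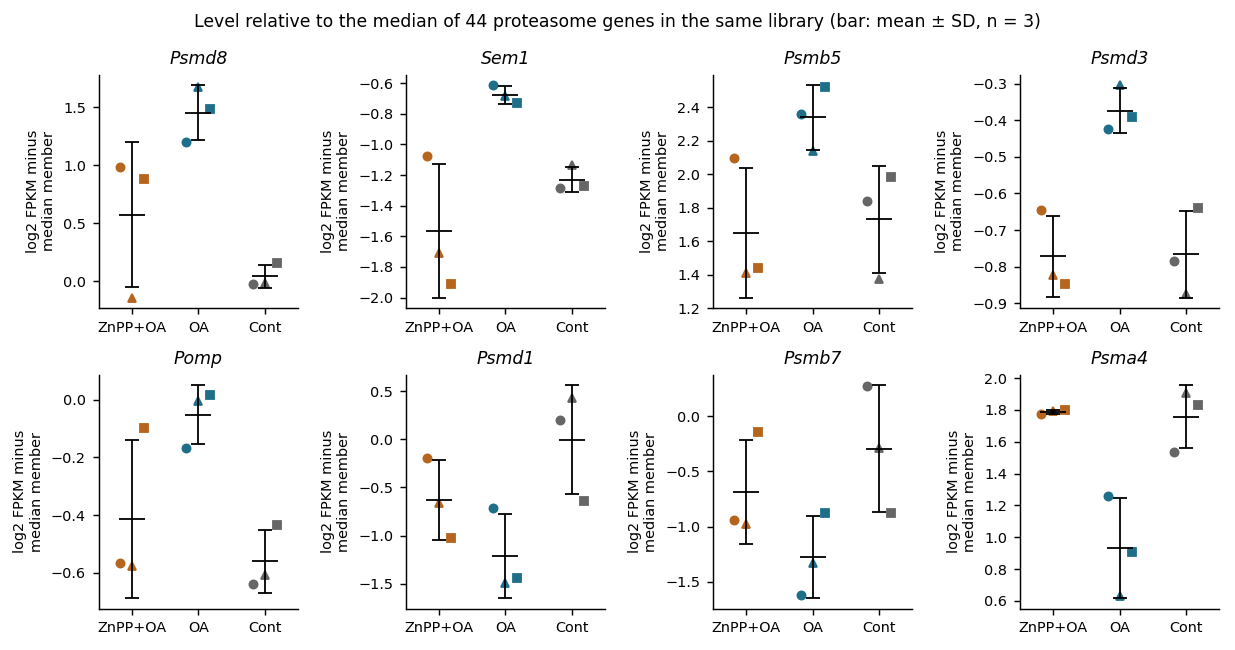
Log2 FPKM minus the median of 44 proteasome genes in the same library (y axis) for 8 genes, by group (x axis). Circles, triangles and squares are replicates 1, 2 and 3, and bars are the mean ± SD (n = 3). Psmd8, Sem1, Psmb5 and Psmd3 are higher in every OA library than in any other library, and Psma4 is lower.

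By mean FPKM the order of the members also differed between groups. Psmc5 (19.4 FPKM), Psme1 (19.2 FPKM) and Psmd4 (18.1 FPKM) stood first in ZnPP+OA livers, Psmb5 (111.8 FPKM), Psmb4 (81.1 FPKM) and Psmd4 (74.9 FPKM) in OA livers, and Psmd4 (31.6 FPKM), Psmc5 (28.7 FPKM) and Psmc4 (24.8 FPKM) in Cont livers. In OA livers the SD of Psmb5 was 39.3 FPKM, more than its gap to Psmb4. Within each OA liver Psmb5 stood above Psmb4 (71.97, 112.9 and 150.5 FPKM, against 35.68, 103.4 and 104.4 FPKM). Of the 43 pairs of neighbours in the order of each group, 0 in ZnPP+OA livers, 1 in OA livers and 0 in Cont livers differed by more than the SD of both genes. The pair in OA livers was Psmd1 (9.11 FPKM) over Psmd11 (6.58 FPKM). These SDs hold differences in scale that the genes of a library share, with member sums of 505.9, 114.3 and 606.4 FPKM in Cont livers. The counts of pairs therefore do not show whether an order held within each library.

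Genes around the proteasome were read from lists. Over all genes edgeR called 2.4% higher and 2.8% lower in OA against Cont, and 1.6% and 1.26% in ZnPP+OA against OA. At an unadjusted p under 0.05 these shares were 11.6% and 10.3%, and 7.91% and 10.2%. DESeq2 called 4.41% and 8.52%, and 5.32% and 3.34%. Of 11 genes of the Nfe2l1 route, 1 was called higher in OA than in Cont livers, Nfe2l2, which encodes Nrf2 (50.4, 65.4 and 50.7 CPM, against 15.6, 19.9 and 30.5 CPM; log2 1.33 ± 0.32, adjusted p = 0.0334, edgeR). Nfe2l1 itself measured 26.0, 27.4 and 29.6 CPM in ZnPP+OA livers, 26.0, 26.0 and 32.8 CPM in OA livers and 22.9, 23.0 and 26.7 CPM in Cont livers. Of 10 targets of Nrf2, 5 were higher in OA than in Cont livers (Srxn1, Cbr3, Gclc and Gsta1 with the smallest p, log2 2.62 to 3.57) and 4 were lower in ZnPP+OA than in OA livers (Gclc, Srxn1, Cbr3 and Slc7a11, log2 −3.10 to −2.51). The list median was 2.31 in OA against Cont, where that of the proteasome members was 0.34. Of 6 ubiquitin genes, 0 were called in OA against Cont by edgeR (2 higher at an unadjusted p under 0.05, and 1 by DESeq2), and 1, Rps27a, which encodes ubiquitin fused to a ribosomal protein, was lower in ZnPP+OA livers (36.7, 20.6 and 36.2 CPM, against 87.9, 178 and 126 CPM in OA livers; log2 −2.07 ± 0.38, adjusted p = 0.0156, edgeR). Of 11 proteins bound to the proteasome, such as the deubiquitinase Usp14, edgeR called 0 in either comparison. DESeq2 called 1 lower in ZnPP+OA than in OA livers and 0 in OA against Cont. At an unadjusted p under 0.05, 3 were lower in ZnPP+OA than in OA livers, and 2 were higher and 1 lower in OA than in Cont livers, with Zfand5 at the smallest p (log2 0.84 in OA against Cont, adjusted p = 0.0895, edgeR).

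The hepatocyte gene Alb measured 6594 to 40460 CPM in the 9 livers, and markers of hepatocytes and of some other cells differed between groups. Over all genes edgeR called 2.4% higher and 2.8% lower in OA against Cont, and 1.6% and 1.26% in ZnPP+OA against OA. DESeq2 called 4.41% and 8.52%, and 5.32% and 3.34%. At an unadjusted p under 0.05 (edgeR) the shares were 11.6% and 10.3%, and 7.91% and 10.2%. Between ZnPP+OA and Cont livers they were 3.88% and 4.28%. The 9 macrophage markers summed to 292 to 421 CPM in ZnPP+OA livers, 786 to 1085 CPM in OA livers and 168 to 396 CPM in Cont livers, with none at 0, and 7 were called higher in OA than in Cont livers and 3 lower in ZnPP+OA than in OA livers. Leukocyte markers summed to 43.0 to 60.7, 122.8 to 177 and 42.01 to 69.98 CPM in the same order of groups (2 of 5 called higher in OA against Cont, 2 lower in ZnPP+OA against OA). In OA against Cont 4 of 5 were above 0, but Ptprc had log2 −0.07, and −0.02 in ZnPP+OA against OA (adjusted p = 0.936 and 0.986, edgeR). Of 6 tested neutrophil markers 1 was called higher in OA livers, with sums of 12.1 to 17.1, 20.6 to 68.1 and 4.14 to 18 CPM, and up to 3 of all 7 were at 0 counts in a library. Lymphocyte markers summed to 1.70 to 3.42, 1.17 to 1.60 and 4.45 to 8.48 CPM. Hepatocyte markers summed to 15730 to 20560 CPM in ZnPP+OA livers, 12290 to 19990 CPM in OA livers and 17370 to 58670 CPM in Cont livers. In OA against Cont, 2 of 8 were called lower by edgeR and 5 by DESeq2, and 0 were above 0 (median log2 −0.88). In ZnPP+OA against Cont 0 were called, and 0 were above 0 (median log2 −0.78). Of 4 endothelium and 4 cholangiocyte markers, edgeR and DESeq2 each called 0 in any comparison. At an unadjusted p under 0.05, 1 endothelium marker was lower in ZnPP+OA than in OA livers, 2 cholangiocyte markers were higher in OA than in Cont livers, and 1 of each list differed between ZnPP+OA and Cont livers. In bulk liver, fewer cells of a type and less RNA per cell cannot be told apart, and the part of these markers in the proteasome values was not tested.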

How the data were processed

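Poly(A) RNA of 9 mouse livers was sequenced as stranded 2 × 150 base pairs (RIN above 7, per the labels). The authors deposited, for each gene, unscaled counts and FPKM (corrected for gene length and depth). Tools in the submitters' processing notes are HISAT2 2.2.1, cutadapt 1.9 and StringTie 2.1.6, beside edgeR, DESeq2 and the build mm10. Which of them made which value, and the use of strand in counting, are not given in the sources used here. Members, role classes, context lists and tests were chosen with earlier results of these data known.

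Counts were filtered with filterByExpr (min.count 10, min.total.count 15), scaled by TMM, and fitted once for all 3 groups in edgeR 4.0.16 under R 4.3.3, with quasi-likelihood F tests of each contrast. P-values were adjusted by Benjamini and Hochberg over 18895 genes at 0.05, after the code was tested on simulated data. For OA against Cont, the simulation had 12 of 50 genes called at a set log2 of 2 and 7 of 50 at −2. At a set log2 of 1 and −1 it had 1 of 50 and 0 of 50, so a gene not called may still differ. The changed genes were drawn from all genes tested, whatever their counts or spread, so these numbers do not give the recovery for proteasome members. Alternatives were DESeq2 1.42.0, limma 3.58.1 on log2(FPKM + 1) or log2(FPKM + 0.1) for genes with FPKM of at least 1 in 3 libraries or unfiltered, other scalings and filters, a replicate block and each library left out. Leaving out Cont 1 and Cont 2 together was chosen after seeing the data.

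Members were named by rule: the catalytic, immunoproteasome and activator genes, Pomp, Psmf1 and Ifng, any member past the threshold, and in each class the members with the largest and smallest fold change. Psmd13, Psmd10 and others beyond it were named after their values were seen. Near copies were sought among GENCODE M21 transcripts (at least 95% identity over 300 bases), and 13 members had one that drew counts. Promoters came from RefSeq (GRCm38.p6). KEGG entries of 16 genes are marked as removed in the table, so a proteasome gene among them is not analysed here. Single lymphocyte markers are not reported here.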

Additional observations from a re-analysis of the deposited data

How the results depend on the processing

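The number of members called depended on the scale. In OA against Cont, 12 were called higher with library totals alone (15% of all genes), 34 with limma on log2(FPKM + 1) (68.7%), 31 with log2(FPKM + 0.1) (59.8%) and 14 without a filter on FPKM (19.7%), with medians of 1.74, 1.68, 1.93 and 1.65 beside 1.48, 1.19, 1.83 and 0.12 over all genes. In ZnPP+OA against OA, 32 were called lower with totals alone (33.4% of all genes), 42 with log2(FPKM + 1) (76.3%), 40 with log2(FPKM + 0.1) (64.2%) and 29 without a filter (23.6%), with medians of −2.09, −1.92, −2.08 and −1.85 beside −1.85, −1.27, −1.88 and −0.14 over all genes. The median of ZnPP+OA against Cont was −0.50 with totals alone. With totals and with the filtered FPKM, the median of all genes thus moved in the same direction as that of the members. With DESeq2 size factors in edgeR the medians were 0.19 and −0.19, beside −0.07 and 0.04 over all genes.

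On the TMM scale, ZnPP+OA against OA gave 6 lower with no filter (2.36% of all genes), 2 with at least 10 counts in every library (2.78%) and 2 in the fit of the 6 compared libraries (4.11%). DESeq2, with its own size factors, gave 5 lower there (3.34%) and 1 lower in OA against Cont (8.52%). Leaving out 1 library gave 0 to 2 higher and 0 to 1 lower in OA against Cont (0 higher without Cont 2, OA 2 or OA 3, 2 without OA 1; 1 lower without Cont 3) and 0 to 4 lower in ZnPP+OA against OA (0 without ZnPP+OA 2, ZnPP+OA 3, OA 2 or OA 3, 4 without OA 1, 2 without Cont 1 or Cont 2). Over all genes these fits called 0.496% to 3.23% higher and 0.704% to 3.52% lower in OA against Cont and 0.0291% to 2.7% lower in ZnPP+OA against OA, so the whole table moved too. Without Cont 1 and Cont 2 together, 0 were higher in OA against Cont (0.309% of all genes) and 5 lower in ZnPP+OA against OA (3.55%). The cause of these changes was not tested.

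Replicate numbers are shared between groups, but same-numbered libraries did not deviate together (correlations of −0.101 to 0.014), so they were not taken as pairs. With the replicate block, 0 members were lower in ZnPP+OA against OA (0.503% of all genes; Sem1 had log2 −1.40, edgeR adjusted p = 0.0749) and 1 was higher in OA against Cont (1.37%).

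Of 2824 values of single members, 9 changed sign and passed the threshold, all on the FPKM scale: in ZnPP+OA against OA, Psma3 (−1.54 with log2(FPKM + 1), −1.75 with log2(FPKM + 0.1)), Psmc5 (−1.72 and −1.77), Psmd1 (−1.41 with and without the filter), Psmb7 (−1.39) and Psme2b (−1.36 without the filter), and in OA against Cont Psmd12 (1.39). Another 267 changed sign without passing it, 205 of them off the FPKM scale. In the same direction, 240 values newly passed the threshold, 9 lost it and 2299 kept their side. With 3 livers a group, exact permutation tests cannot go below p = 0.1.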
